A study of Mus musculus with 16 samples.

Results

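The genes described here are 10 genes of the surface and cell junctions of vascular endothelium: Cldn5, Cdh5, Esam, Pecam1, Emcn, Clec14a, Eng, Egfl7, Ramp2 and Tjp1. They were chosen by name, with every probe set that carries 1 of these symbols alone, which gave 16 of the 45037 probe sets on the array that are no array control. Another 2 probe sets carry Ramp2 together with a second gene and were not used. All 10 genes were measured, 6 of them by 1 probe set, Cdh5, Clec14a and Eng by 2 and Egfl7 by 4, and no filter on dim values was applied. Arrays were made from 4 groups of C57BL/6J mice at postnatal day 7, with 4 biological replicates in each: dexamethasone-treated whole lung, vehicle-treated whole lung, dexamethasone-treated whole cerebellum and vehicle-treated whole cerebellum. Dexamethasone is a synthetic glucocorticoid, a steroid that acts through the glucocorticoid receptor, and the series title calls the treatment chronic. The labels say nothing of dose, schedule, sex or litter. Values are log2 expression values made by RMA, the standard summary of Affymetrix probe sets, and a gene with several probe sets is represented by the brightest unless stated. A probe set's level cannot be set against that of another, so only differences between groups are compared across genes.

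Endothelial cells line all vessels and seal the gaps between each other with tight and adherens junctions. Claudin-5, the product of Cldn5, forms the tight junction strands that make the blood-brain barrier impermeable to small molecules, and Tjp1 (ZO-1) is the cytoplasmic scaffold to which claudins are anchored in endothelium and in epithelium. VE-cadherin (Cdh5) is the adhesion molecule of endothelial adherens junctions, while Esam and Pecam1 (CD31) are immunoglobulin-type adhesion molecules of endothelial contacts that platelets and some leukocytes also carry. On the surface, endomucin (Emcn) is a sialomucin of capillaries and veins, Clec14a a C-type lectin-like receptor, endoglin (Eng) a co-receptor for ligands of the TGF-beta and BMP family, and Ramp2 the partner that turns the receptor Calcrl into a receptor for adrenomedullin. Egfl7 is secreted by endothelial cells. The arrays hold the RNA of whole organs, so fewer endothelial cells and less RNA per endothelial cell cannot be told apart in any result below.

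Array medians lay between 5.87 and 6.00. Arrays of the same tissue correlated at 0.950 to 0.994 and arrays of different tissues at 0.804 to 0.864. RNA integrity was read from the Gapdh control probes, as the log2 signal at the 3′ end minus that at the 5′ end. Dexamethasone lungs had 0.446 to 0.708 and vehicle lungs 0.84 to 1.04, without overlap, while dexamethasone cerebella had 0.049 to 0.178 and vehicle cerebella 0.044 to 0.518. The female-specific transcript Xist exceeded 9 on 3 dexamethasone and 1 vehicle lung array, and on 2 dexamethasone and 1 vehicle cerebellar array. All labels carry the same hybridization date, so no batch could be tested. The array numbers of treated and vehicle mice lie in separate ranges in each tissue, and an effect of litter or order of collection cannot be told apart from treatment.

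Every gene was higher in lung than in cerebellum. For all 10 genes the lowest of the 8 lung arrays lay above the highest of the 8 cerebellar arrays. In vehicle mice all 10 were called higher in lung than in cerebellum by limma at an adjusted p under 0.05. Of all 18193 genes 57.7% were called in vehicle mice in either direction. Every vehicle lung array lay above every vehicle cerebellar one for 27.4% of all genes. Pecam1 differed most, with 9.84 ± 0.26 in vehicle lung and 5.59 ± 0.27 in vehicle cerebellum (SD, n = 4 each), a log2 difference of 4.25 ± 0.23 (standard error, adjusted p = 3.51e-11), or 19.1-fold. Cdh5 was 11.8-fold, Emcn 10.8-fold, Clec14a 9.50-fold and Egfl7 8.90-fold higher in vehicle lung than in vehicle cerebellum. The smallest differences were those of Tjp1, at 3.12-fold, and Cldn5, at 3.74-fold. The median log2 difference was 2.87 over the 10 genes, against 0.00175 over all genes. The brightest probe sets of Pecam1 and Cdh5 lay between 4.74 and 6.84 in cerebellum, near the array medians. Emcn, at 6.12 to 6.91 in cerebellum, and Clec14a, at 6.20 to 6.55 in dexamethasone cerebella, were also close to them.

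**Figure D1:**
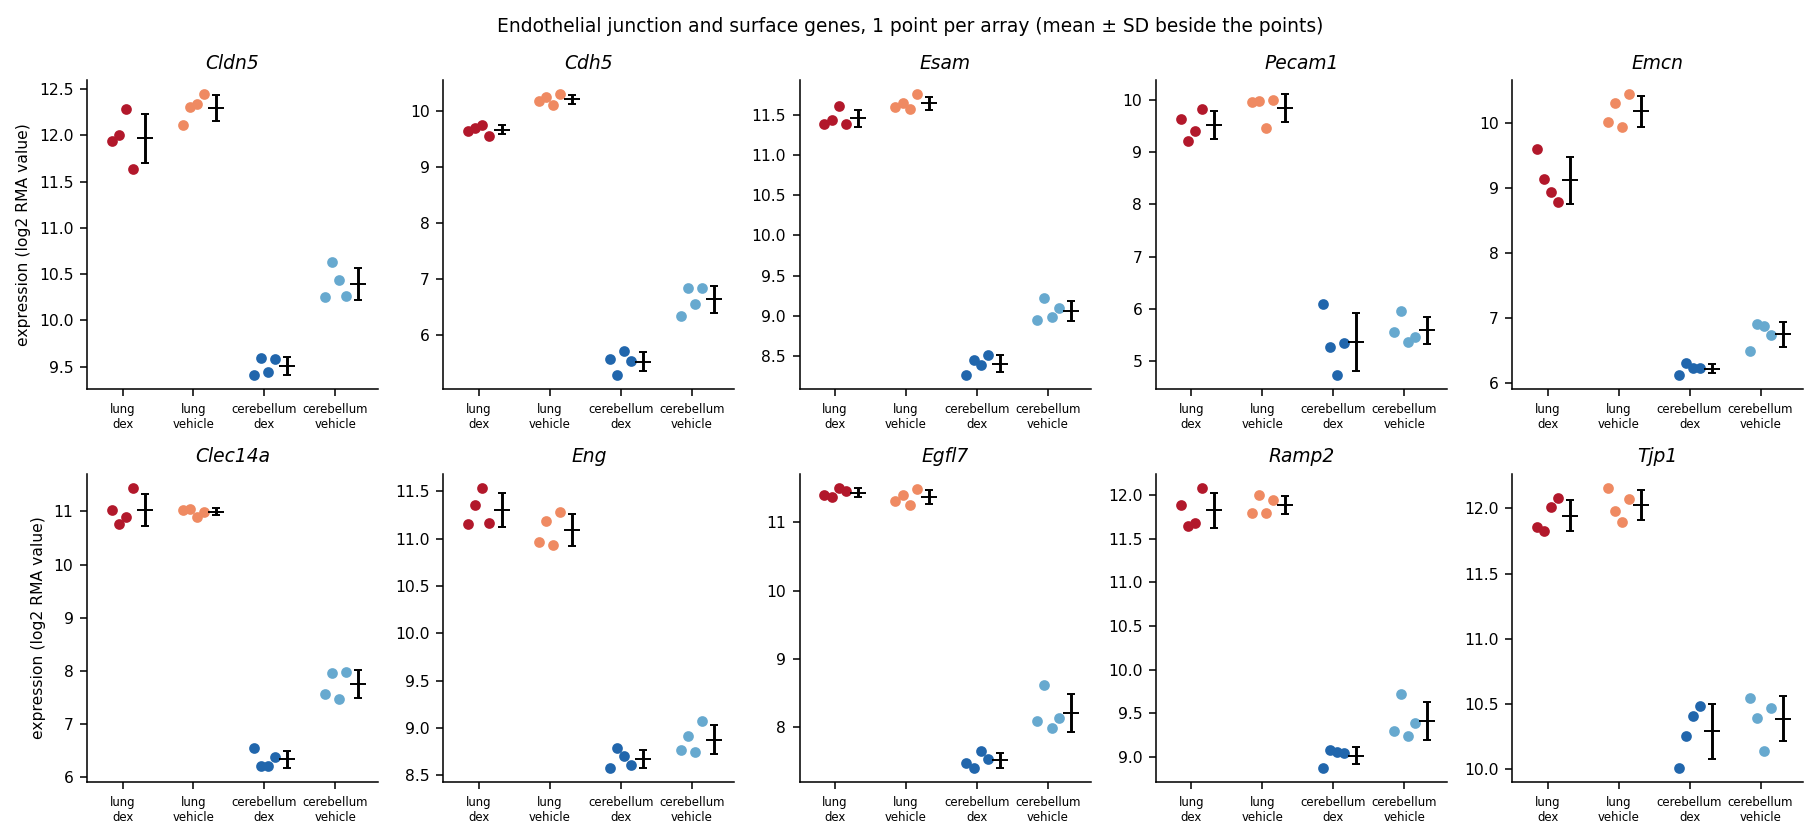
Log2 RMA expression (vertical axes, a separate scale per gene) of the 10 endothelial genes in dexamethasone lung, vehicle lung, dexamethasone cerebellum and vehicle cerebellum. Each point is 1 array, and the bar beside the points is the mean ± SD of 4 arrays. All lung points lie above all cerebellar points, and in cerebellum the dexamethasone points of Cldn5, Cdh5, Esam, Emcn, Clec14a, Egfl7 and Ramp2 lie below all vehicle points.

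In the cerebellum, 5 of the 10 genes fell with dexamethasone: Clec14a, Cdh5, Cldn5, Egfl7 and Esam. None rose, and all 10 log2 changes were negative, from -1.41 to -0.097. Among all genes 1.97% were called lower. The median log2 change was -0.59 over the 10 genes, against 0.00675 over all genes. In 7 of the 10 every dexamethasone array lay below every vehicle array, as it did for 5.44% of all genes. These 7 are the 5 called genes with Emcn and Ramp2.

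Of the junction genes Cldn5, Cdh5 and Esam fell in the cerebellum, and Pecam1 and Tjp1 were not called. Cldn5 stood at 9.41, 9.59, 9.45 and 9.59 in the dexamethasone cerebella B39, B49, B50 and B52, against 10.26, 10.63, 10.43 and 10.27 in the vehicle cerebella B78, B79, B80 and B81. The groups were separated by more than the spread within either, and Cldn5 fell 1.85-fold (log2 change -0.89 ± 0.13, limma adjusted p = 0.000695). Cdh5 was at 5.57, 5.29, 5.72 and 5.55 in dexamethasone cerebella, against 6.35, 6.84, 6.55 and 6.84 in vehicle cerebella. It fell 2.16-fold (log2 change -1.11 ± 0.11, adjusted p = 6.19e-05), with its highest treated array, B50, below its lowest vehicle array, B78. All its treated values lay below the array medians of 5.87 to 6.00. Esam was at 8.26, 8.45, 8.39 and 8.51 in dexamethasone cerebella, against 8.94, 9.22, 8.98 and 9.10 in vehicle cerebella. This was a fall of 1.58-fold (log2 change -0.66 ± 0.089, adjusted p = 0.000539), the smallest of the 5, in a gene whose arrays lay close together in both groups.

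Pecam1 was not called in cerebellum. Its values were 6.09, 5.27, 4.74 and 5.36 in dexamethasone cerebella, against 5.56, 5.97, 5.37 and 5.46 in vehicle cerebella, and the highest of all 8 was the treated array B39. The log2 change was -0.23, with a 95% interval of -0.71 to 0.26 (adjusted p = 0.729), and -0.47 without B39 (still not called). At this dim level the interval includes falls larger than that of Esam. Tjp1 was at 10.01, 10.26, 10.41 and 10.49 in dexamethasone cerebella, against 10.55, 10.40, 10.14 and 10.47 in vehicle cerebella, so the groups overlapped almost fully. Its log2 change of -0.097 had an interval of -0.34 to 0.15 (adjusted p = 0.788).

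Among the surface and secreted proteins, the lectin-like receptor Clec14a changed most by its brightest probe set, while its second probe set was not called. It was at 6.55, 6.20, 6.20 and 6.37 in dexamethasone cerebella, against 7.57, 7.96, 7.47 and 7.99 in vehicle cerebella, with a gap between the groups of more than the range of either. Clec14a fell 2.66-fold (log2 change -1.41 ± 0.15, adjusted p = 6.19e-05). Egfl7 was at 7.48, 7.40, 7.65 and 7.54 in dexamethasone cerebella, against 8.09, 8.62, 7.99 and 8.14 in vehicle cerebella. It fell 1.62-fold (log2 change -0.69 ± 0.12, adjusted p = 0.00242), and the vehicle array B79 was the highest. The endothelial microRNA miR-126 is encoded within Egfl7. The 3p arm of Mir126a lies at chr2:26591402-26591423 on the plus strand of GRCm38.p6, inside the bounds RefSeq gives for Egfl7. It is shown, with its seed (bases 2 to 8) in capitals, because a change of the host transcript may be read for the microRNA. These arrays did not measure the microRNA.
mmu-miR-126a-3p: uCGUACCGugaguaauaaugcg

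Emcn, Ramp2 and Eng were not called in the cerebellum. Emcn was at 6.12, 6.30, 6.23 and 6.23 in dexamethasone cerebella, against 6.49, 6.91, 6.87 and 6.73 in vehicle cerebella. Its log2 change was -0.53, with an interval of -0.86 to -0.20 (adjusted p = 0.0665), and it was called when only the cerebellar arrays were fitted (adjusted p = 0.0247), without the lung array B28 or B46 (0.0254 and 0.0387) and after cyclic loess normalization (0.0321). Ramp2 was at 8.87, 9.08, 9.06 and 9.05 in dexamethasone cerebella, against 9.30, 9.72, 9.24 and 9.39 in vehicle cerebella. Its log2 change was -0.40, with an interval of -0.65 to -0.15 (adjusted p = 0.0629), and it was called under 5 of 9 other settings and without the lung array B46, with adjusted p from 0.0336 to 0.0488. Both lie at the threshold, with groups that did not overlap. Eng was at 8.58, 8.79, 8.70 and 8.60 in dexamethasone cerebella, against 8.76, 8.92, 8.74 and 9.07 in vehicle cerebella, with the treated array B49 above 2 vehicle arrays. Its log2 change was -0.20, with an interval of -0.44 to 0.033 (adjusted p = 0.398).

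In the lung 2 of the 10 genes fell, Emcn and Cdh5, and none rose, where 15.5% of all genes were called lower and 31.2% in either direction. For the same 2 alone every dexamethasone array lay below every vehicle array, as it did for 15.5% of all genes. Emcn was at 9.61, 9.14, 8.94 and 8.78 in the dexamethasone lungs B28, B31, B40 and B46, against 10.02, 10.31, 9.94 and 10.44 in the vehicle lungs B12, B14, B19 and B22. It fell 2.09-fold (log2 change -1.06 ± 0.16, adjusted p = 7.6e-05), and B28 was the treated array nearest to the vehicle lungs. Cdh5 was at 9.64, 9.69, 9.75 and 9.56 in dexamethasone lungs, against 10.17, 10.25, 10.11 and 10.29 in vehicle lungs. The groups were tight and did not overlap, and Cdh5 fell 1.46-fold (log2 change -0.55 ± 0.11, adjusted p = 0.00162). With the Gapdh 3′ minus 5′ signal as a covariate, which differs between these groups without overlap, the log2 change of Cdh5 was -0.40 and it was not called (adjusted p = 0.225), while Emcn had -1.18 and stayed below the threshold (adjusted p = 0.011). In lung this signal and treatment cannot be told apart.

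The junction genes Cldn5, Esam, Pecam1 and Tjp1 were not called in lung. Cldn5 was at 11.94, 12.00, 12.28 and 11.64 in dexamethasone lungs, against 12.11, 12.30, 12.34 and 12.44 in vehicle lungs, where B40 overlapped with the vehicle range. Its log2 change was -0.33, with an interval of -0.60 to -0.065 (adjusted p = 0.0552). It was called without the lung arrays B40 or B12 (adjusted p = 0.012 and 0.0382), without the cerebellar array B79 (0.0464), and under 3 of 9 other settings (0.0327 to 0.0482). Esam was at 11.39, 11.44, 11.61 and 11.39 in dexamethasone lungs, against 11.60, 11.66, 11.58 and 11.76 in vehicle lungs, with a log2 change of -0.19 (interval -0.38 to -0.0022, adjusted p = 0.119). Pecam1 was at 9.62, 9.21, 9.41 and 9.83 in dexamethasone lungs, against 9.96, 9.98, 9.45 and 9.99 in vehicle lungs, with the vehicle array B19 among the treated ones. Its log2 change was -0.33 (interval -0.81 to 0.15, adjusted p = 0.307), and that of Tjp1 was -0.084 (interval -0.33 to 0.16, adjusted p = 0.633).

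The brightest probe set of Clec14a, which fell in the cerebellum, was not called in the lung. It was at 11.03, 10.76, 10.90 and 11.45 in dexamethasone lungs, against 11.02, 11.05, 10.90 and 10.997 in vehicle lungs, where the vehicle values all lay within the treated range. The log2 change was 0.039, with an interval of -0.27 to 0.35, so that a fall as large as in the cerebellum lies outside it. It was -0.10 without B46, the highest treated array. Egfl7 had a log2 change of 0.0665 (interval -0.18 to 0.31) and Ramp2 of -0.058 (interval -0.31 to 0.19). Eng, at 11.15, 11.35, 11.54 and 11.16 in dexamethasone lungs, against 10.96, 11.18, 10.94 and 11.28 in vehicle lungs, had a log2 change of 0.21 (interval -0.028 to 0.45, adjusted p = 0.177). Over the 10 genes the median log2 change in lung was -0.14, against 0.048 over all genes.

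**Figure D2:**
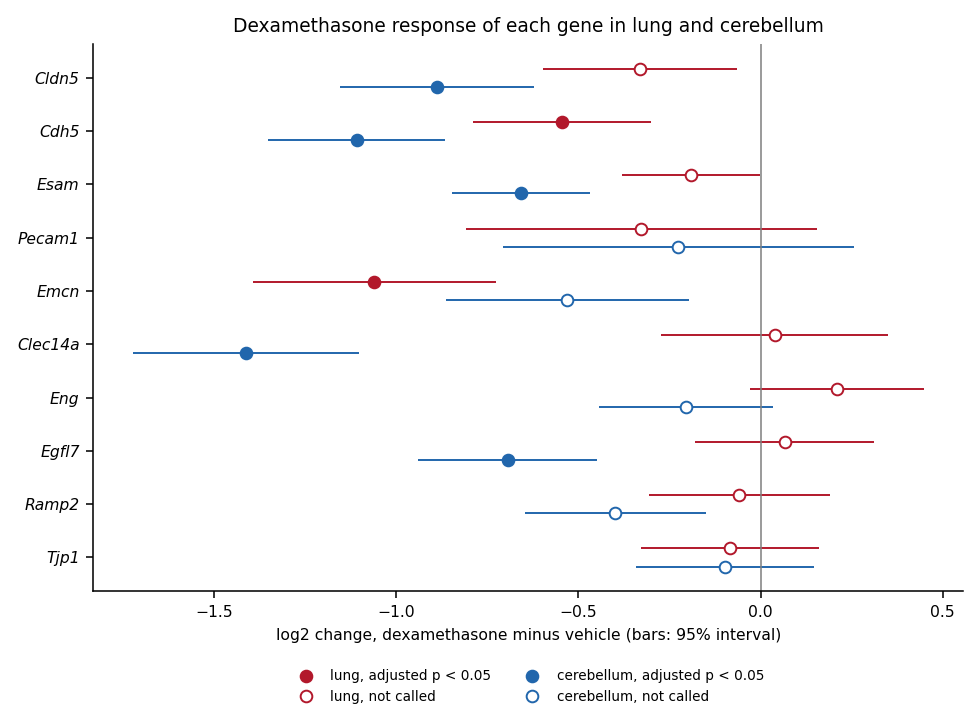
Log2 change with dexamethasone (horizontal axis) of each of the 10 endothelial genes in lung (red, upper point) and cerebellum (blue, lower point), with 95% intervals from the limma fit. Filled points have an adjusted p under 0.05: Cdh5 and Emcn in lung, and Cldn5, Cdh5, Esam, Clec14a and Egfl7 in cerebellum.

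The difference between the tissues was tested directly, as the log2 change in lung minus that in cerebellum. It was called for 5 genes, each with the larger fall in cerebellum. Among all genes 9.85% were called with a positive difference. For Clec14a the difference was 1.45 ± 0.21 (adjusted p = 0.000131), for Egfl7 0.76 ± 0.16 (adjusted p = 0.00335), for Esam 0.47 ± 0.13 (adjusted p = 0.0143), for Cdh5 0.56 ± 0.16 (adjusted p = 0.0205) and for Cldn5 0.56 ± 0.18 (adjusted p = 0.0347). Emcn went the other way, with the larger fall in lung and a difference of -0.53 (interval -1.002 to -0.058), which was not called (adjusted p = 0.106) except without B28 (adjusted p = 0.0156). Eng had 0.41 (interval 0.078 to 0.75, adjusted p = 0.0764), Ramp2 0.34 (interval -0.010 to 0.69, adjusted p = 0.167), Pecam1 -0.10 (interval -0.78 to 0.58) and Tjp1 0.0125 (interval -0.33 to 0.36). The call for Cldn5 was lost without any 1 of B39, B50, B79, B80, B31, B40, B12 or B14, with differences of 0.45 to 0.56 and adjusted p from 0.0543 to 0.0749. With the Gapdh signal as a covariate Clec14a had 1.51 ± 0.26 (adjusted p = 0.00198) and Cdh5 0.67 ± 0.20 (adjusted p = 0.0419), both called. Egfl7 then had 0.66 ± 0.20 (adjusted p = 0.0509), Esam 0.47 ± 0.16 (adjusted p = 0.0749) and Cldn5 0.49 ± 0.22 (adjusted p = 0.188), differences close to those without the covariate but with larger standard errors.

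Genes with several probe sets did not give a single answer. Fitted one by one over all 45037 probe sets, 8 of the 16 were lower in the treated cerebellum, where 1.45% of all probe sets were called lower, and all 16 changes were negative. In lung 2 of 16 were lower, against 13.3% of all. All 16 were called higher in vehicle lung than in vehicle cerebellum, against 23.5% of all. The difference between tissues was called for 5, each with the larger fall in cerebellum. Among all probe sets 6.05% were called with a positive difference, lung minus cerebellum. The second probe set of Clec14a, 1419468_at, had a cerebellar log2 change of -0.19 (interval -0.47 to 0.092) where 1419467_at had -1.41. Its levels were 5.95, 5.86, 5.29 and 5.43 in dexamethasone cerebella, against 5.82, 5.71, 5.93 and 5.82 in vehicle cerebella, near the array medians. The same probe set was 3.75 higher on the log2 scale in vehicle lung than in vehicle cerebellum, so its values were not flat across the arrays. Its log2 change in lung was -0.19 as well, and the difference between the tissues was -0.0055 (interval -0.40 to 0.39, adjusted p = 0.99).

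The second probe set of Cdh5, 1422047_at, lay between 4.13 and 4.72 in cerebellum and had a log2 change of -0.19 there (adjusted p = 0.754) and -0.083 in lung (adjusted p = 0.784). For Eng the dimmer probe set, 1432176_a_at, did fall in cerebellum. It was at 6.83, 6.31, 6.71 and 6.50 in dexamethasone cerebella, against 7.13, 7.25, 7.21 and 7.50 in vehicle cerebella, without overlap (log2 change -0.69 ± 0.14, adjusted p = 0.0141). In lung it had -0.11 (adjusted p = 0.64), so the probe sets of Eng differ in whether a fall in cerebellum is called. Of the 4 probe sets of Egfl7, 3 fell in cerebellum by 0.60 to 0.69, and the dimmest, 1421335_a_at, had -0.23 (adjusted p = 0.703). The brightest probe set of Egfl7 and 1 other end in _x_at, the mark of probes that can also bind related transcripts. With the probe sets of a gene averaged, the log2 change in cerebellum was -0.80 for Clec14a, -0.65 for Cdh5 and -0.55 for Egfl7, all still called, and Eng was called as well at -0.45 (adjusted p = 0.0355). The difference between tissues of Clec14a was then 0.72, against 1.45 for the brightest probe set, and still called (adjusted p = 0.00347). That of Egfl7 was 0.49 and that of Cdh5 0.33, no longer called (adjusted p = 0.0571 and 0.127), while that of Eng was called at 0.49 (adjusted p = 0.0402).

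**Figure D3:**
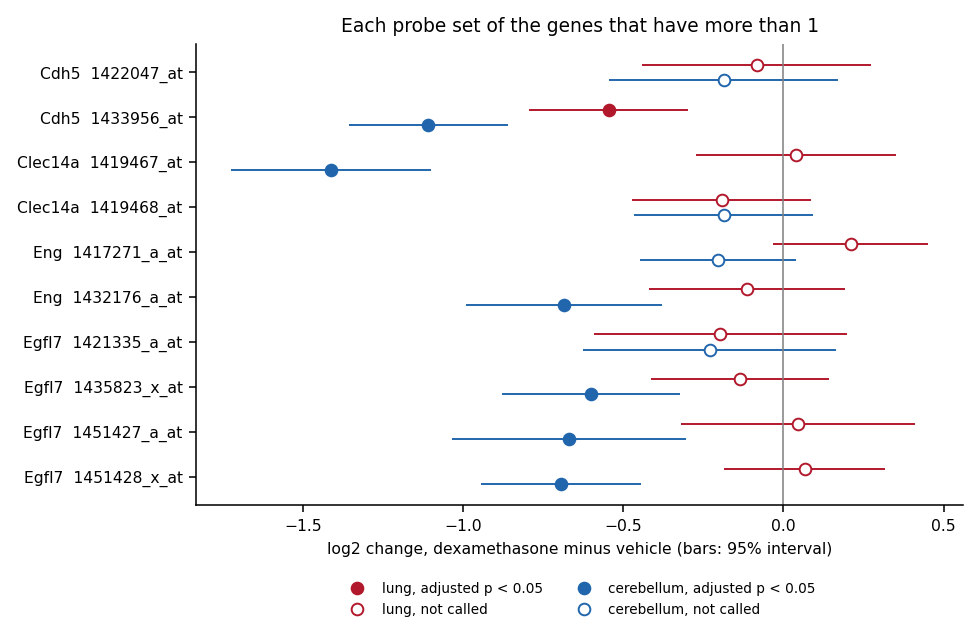
Log2 change with dexamethasone (horizontal axis) for each probe set of Cdh5, Clec14a, Eng and Egfl7 in lung (red) and cerebellum (blue), with 95% intervals. Filled points have an adjusted p under 0.05 over all probe sets. In cerebellum 1 of 2 probe sets of Cdh5, Clec14a and Eng and 3 of 4 of Egfl7 are filled.

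The sequence before the start of transcription is shown for the genes with the strongest responses for which RefSeq windows were at hand, Clec14a and Cldn5 for cerebellum and Emcn for lung, and for Eng, whose call differed between probe sets. Each window runs from 250 bases before to 50 after the start, 5′ to 3′ on the gene's strand, in GRCm38.p6. Capitals mark matches on either strand to AGGAAG, a core bound by ETS factors such as Erg, and to TGTTCT, a hexamer of the glucocorticoid receptor element; the letters of these motifs do not overlap in the windows shown. The windows are Clec14a at chr12:58269209-58269508 on the minus strand, Cldn5 at chr16:18776597-18776896 on the plus strand, Emcn at chr3:137340828-137341127 on the plus strand and Eng at chr2:32646345-32646644 on the plus strand.
Clec14a: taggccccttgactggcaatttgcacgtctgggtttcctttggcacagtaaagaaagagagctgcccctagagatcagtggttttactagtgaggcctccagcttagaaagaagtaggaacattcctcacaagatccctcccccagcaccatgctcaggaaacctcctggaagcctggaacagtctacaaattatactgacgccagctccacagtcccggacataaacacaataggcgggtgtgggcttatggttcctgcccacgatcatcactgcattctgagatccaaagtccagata
Cldn5: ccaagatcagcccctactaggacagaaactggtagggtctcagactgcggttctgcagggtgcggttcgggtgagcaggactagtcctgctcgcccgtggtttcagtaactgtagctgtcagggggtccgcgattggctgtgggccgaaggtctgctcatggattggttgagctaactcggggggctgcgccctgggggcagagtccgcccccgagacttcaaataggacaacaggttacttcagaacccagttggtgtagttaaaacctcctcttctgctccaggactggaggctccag
Emcn: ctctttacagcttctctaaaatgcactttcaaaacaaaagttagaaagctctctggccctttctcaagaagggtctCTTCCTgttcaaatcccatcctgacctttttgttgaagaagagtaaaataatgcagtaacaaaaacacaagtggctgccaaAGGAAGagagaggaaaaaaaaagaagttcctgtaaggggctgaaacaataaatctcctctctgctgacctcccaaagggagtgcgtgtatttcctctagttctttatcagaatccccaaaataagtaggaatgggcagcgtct
Eng: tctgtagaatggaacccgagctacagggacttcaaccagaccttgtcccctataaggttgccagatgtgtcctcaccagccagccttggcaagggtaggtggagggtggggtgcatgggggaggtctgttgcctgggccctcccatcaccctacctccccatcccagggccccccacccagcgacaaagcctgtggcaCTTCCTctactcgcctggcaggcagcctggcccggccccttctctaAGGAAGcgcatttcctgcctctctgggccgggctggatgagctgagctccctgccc

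Emcn and Eng each hold 2 matches to AGGAAG, and the windows of Clec14a and Cldn5 hold neither motif. Windows were given for 6 of the 10 genes, 8 in all with 3 for Egfl7. AGGAAG was present in 4 of these 8, against 35.4% of all 32851 windows, and TGTTCT in 1 of 8, a window of Egfl7, against 19% of all. These are descriptions of letters in short windows, and no binding was measured.

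The 10 genes partly moved together between mice of the same group. After each group mean was subtracted, 38 of the 45 pairs of genes correlated positively over the 8 cerebellar arrays, with a median Pearson r of 0.37, and 31 of 45 over the 8 lung arrays, with a median of 0.25. Genes read on the same array share its cell makeup and RNA quality, so these values are descriptions. In cerebellum Egfl7 and Ramp2 were closest (r = 0.87), followed by Esam and Ramp2 (r = 0.87), while Pecam1 and Tjp1 had median r of 0.030 and 0.059 with the others. In lung Esam and Eng were closest (r = 0.95), and Clec14a ran against Cldn5 (r = -0.72).

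In the vehicle cerebellum B79 and in the vehicle lung B22 all 10 genes lay above their group means, while 9 of 10 lay below in the vehicle cerebellum B78 and the vehicle lung B19, and 8 of 10 in the vehicle cerebellum B80. The mean level of the 10 genes was 7.65 to 7.73 in dexamethasone cerebella, against 8.18 to 8.52 in vehicle cerebella, and 10.84 to 10.96 in dexamethasone lungs, against 11.02 to 11.27 in vehicle lungs. The genes outside the set whose residuals ran most like the mean of the 10 were Macrod2, Tmem252, Nhej1, Wdr4 and Ttll11 in cerebellum (r from 0.98 to 0.99 over 8 arrays). In lung they were Scamp3, Zswim8, Vstm4, Mtch2 and Tgm2 (r from 0.97 to 0.99). These are the highest r in a search of the 18193 genes, without the 10, over 8 arrays. High values thus follow in part from picking the top genes, and a link to endothelium was not tested.

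Other genes of endothelium also fell in both organs. Among all genes, 2.84% were called higher and 1.97% lower in the treated cerebellum, and 15.7% and 15.5% in the treated lung. Of 25 measured, 11 fell and 1 rose in the treated cerebellum, with a median log2 change of -0.47. The angiopoietin receptor Tek fell 2.38-fold (adjusted p = 3.09e-05), the C-type lectin-like receptor Cd93 1.80-fold (adjusted p = 4.9e-05), the adhesion receptor Adgrf5 1.63-fold (adjusted p = 0.00124) and the endothelial phosphatase Ptprb 1.49-fold (adjusted p = 0.00338). The VEGF receptor Flt1, named after its value was seen as the only one to rise, was 1.48-fold higher (adjusted p = 0.0134). In the treated lung 15 fell and 3 rose, with a median of -0.50. There the apelin receptor Aplnr fell 5.47-fold (adjusted p = 2.08e-05), Cd34 2.28-fold (adjusted p = 2.86e-06), the receptor Tie1 1.94-fold (adjusted p = 3.42e-05) and Cd93 1.44-fold (adjusted p = 0.00015). The 3 that rose, named after their values were seen, were Adgrl4, Gpihbp1 and Vwf, at 1.63-fold, 1.47-fold and 1.496-fold. Without each array in turn, 9 to 14 fell in cerebellum and 12 to 16 in lung.

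Of 22 partners of the surface receptors 3 fell and none rose in cerebellum, against 1.97% and 2.84% of all genes. The 3 were the TGF-beta receptor Tgfbr2 at 1.67-fold (adjusted p = 0.000263), Ptprb, which binds VE-cadherin, and the BMP target Id1 at 1.37-fold (adjusted p = 0.0333). Calcrl, the receptor that Ramp2 accompanies, had a log2 change of -0.10 in lung and -0.29 in cerebellum, neither called. Acvrl1, which signals with endoglin, had 0.18 in lung and 0.024 in cerebellum, also not called. In lung 5 of 22 fell and 4 rose, where 15.5% of all genes were called lower and 15.7% higher, so these counts are near the share of all genes. The BMP signal transducers Smad5 and Smad1 fell 1.97-fold (adjusted p = 1.69e-06) and 1.42-fold (adjusted p = 0.000182), Notch1 1.60-fold (adjusted p = 7.37e-05) and Mmrn2, a ligand of Clec14a, 1.96-fold (adjusted p = 0.000466), and the fifth to fall was Ptprb at 1.41-fold. The 4 that rose, named after their values were seen, were Ramp1, a relative of Ramp2, at 1.49-fold, Id1 at 1.41-fold, Tgfbr2 at 1.27-fold and Smad6 at 1.54-fold. Tgfbr2 and Id1 thus rose in lung and fell in cerebellum. Ptprb and Mmrn2 are also counted among the other genes of endothelium above.

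Of the junction genes shared with other cell types, 24 were measured. In the treated lung 10 of 24 rose and 3 fell, against 15.7% and 15.5% of all genes. Cldn3 rose 3.67-fold (adjusted p = 2.07e-07), cingulin (Cgn) 2.43-fold (adjusted p = 3.46e-06) and occludin (Ocln) 1.83-fold (adjusted p = 6.84e-05), all of them genes of tight junction proteins. N-cadherin (Cdh2) fell 5.42-fold (adjusted p = 1.47e-07). Jam3 and Cdh11, named after their values were seen, fell 1.81-fold and 1.63-fold. In the treated cerebellum 4 of 24 fell and none rose, against 1.97% and 2.84% of all genes. The 4 were F11r, Pard3, Magi1 and Cgnl1, by 1.37-fold to 1.47-fold (adjusted p from 0.0197 to 0.0483). The count of falls was 0 without B49 or B79.

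**Figure D4:**
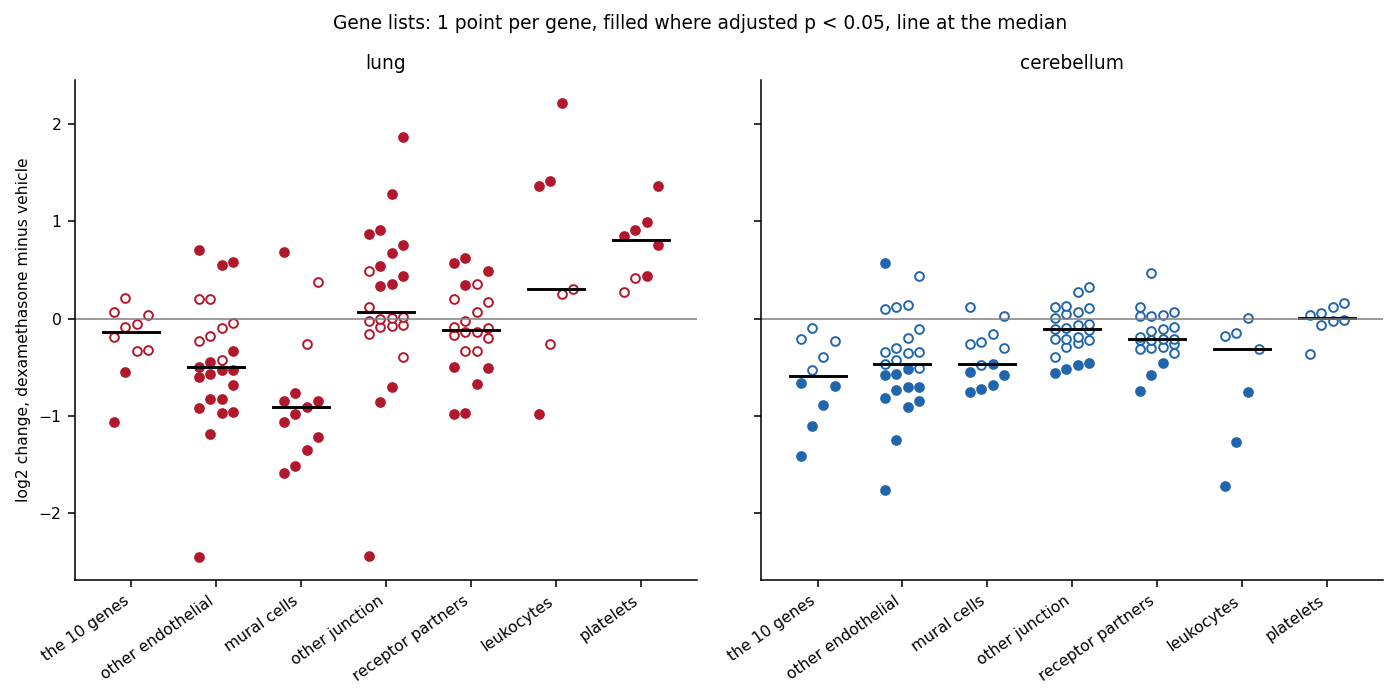
Log2 change with dexamethasone (vertical axis) of the 10 genes and of 6 other lists in lung (left) and cerebellum (right). Each point is 1 gene, filled where its adjusted p is under 0.05, and the black line is the median of the list. Medians of the 10 genes are -0.14 in lung and -0.59 in cerebellum, and those of mural cell markers -0.91 and -0.47.

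Markers of neighbouring cell types moved in the same comparisons, and their part in the results above was not tested. For the counts below, 1.97% of all genes were called lower and 2.84% higher in the treated cerebellum. In the treated lung these shares were 15.5% and 15.7%. Mural cell markers, of the pericytes and smooth muscle that wrap vessels, fell in 6 of 13 cases in cerebellum and rose in none. Their mean level was 7.41 to 7.52 in dexamethasone cerebella, against 7.82 to 7.93 in vehicle cerebella. Pdgfrb, the pericyte growth factor receptor, fell 1.65-fold there (adjusted p = 0.0005), Abcc9 1.69-fold (adjusted p = 0.000765), Rgs5 1.61-fold (adjusted p = 0.0033) and Notch3 1.38-fold (adjusted p = 0.00732). In lung 10 of 13 fell and 1 rose, with mean levels of 8.84 to 9.15 in dexamethasone lungs, against 9.67 to 9.87 in vehicle lungs. Pdgfrb fell 2.54-fold, Cspg4 3.01-fold, Notch3 1.88-fold and Vtn 2.09-fold (adjusted p from 4.79e-08 to 1.77e-05). The channel gene Kcnj8, named after its value was seen, was the 1 that rose, at 1.61-fold.

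Platelets carry Esam and Pecam1. None of 8 platelet markers was called in cerebellum (the brightest, Pf4 and Gp1bb, had log2 changes of -0.36 and -0.061), with mean levels of 6.02 to 6.29 in dexamethasone and 6.04 to 6.26 in vehicle arrays. In lung 6 of 8 rose, among them Ppbp at 2.58-fold (adjusted p = 0.00115), Clec1b at 1.999-fold (0.00141), Gp1bb at 1.88-fold (0.00493) and Gp9 at 1.70-fold (0.00652). On average over the list, dexamethasone lungs had levels of 7.998 to 8.84 and vehicle lungs of 7.31 to 7.99. Of 7 leukocyte markers 3 fell in cerebellum, Ptprc at 1.69-fold, Cd68 at 2.41-fold and S100a8 at 3.29-fold (adjusted p from 0.0216 to 0.0339), and the count was 0 without B50, B52 or B79. Dexamethasone cerebella had mean levels of 5.80 to 6.32 and vehicle cerebella of 6.48 to 6.87. In lung 3 of 7 rose and Cd79a fell, with mean levels of 8.74 to 9.45 in treated lungs, against 8.39 to 8.56 in vehicle lungs. The 3 were Itgam at 4.66-fold, Cd68 at 2.68-fold and S100a8 at 2.57-fold.

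Of 6 lymphatic endothelial markers none was called in cerebellum, where Pdpn had a log2 change of -0.39 and Reln of -0.052, and 3 rose in lung, Reln 5.49-fold, Mmrn1 3.69-fold and Pdpn 1.31-fold. Reln was 41.5-fold higher in vehicle cerebellum than in vehicle lung, so its cerebellar value cannot be read as one of lymphatic vessels. Which cells carried these transcripts in either organ was not tested. Of 9 meningeal and fibroblast markers 2 fell in cerebellum, Col1a1 2.23-fold and Foxc1 1.54-fold, with mean levels of 9.14 to 9.27 in dexamethasone and 9.33 to 9.93 in vehicle arrays. The count in cerebellum was 1 without B49, B50, B52, B78, B79 or B81 and 4 without B46. In lung 3 of 9 fell, Col1a1, Col1a2 and Lum, at 3.08-fold, 2.73-fold and 2.71-fold, and Aldh1a2 rose 1.62-fold, a call lost without B28, B31, B40 or B14. None of 7 proliferation markers was called in cerebellum, where Mki67 had a log2 change of -0.64 and Cdc20 of -0.23, and all 7 fell in lung, Bub1 8.66-fold and Top2a 7.77-fold. Epithelial markers were not called in cerebellum, where Sftpc had -0.041 and Ager -0.39, and 4 of 8 rose in lung, Krt8, Epcam, Krt18 and Nkx2-1, by 1.42-fold to 1.98-fold. Of 7 choroid plexus markers Otx2 fell 1.51-fold in cerebellum, and Kcnj13 and Clic6 rose 2.74-fold and 1.80-fold in lung, of which 1 was called without B49 or any 1 of 7 lung arrays. In cerebellum Ttr had a log2 change of 0.046 and Folr1 of 0.0425, neither called. Kcnj13 and Clic6 differed between vehicle lung and vehicle cerebellum by only -0.22 and 0.28, neither called. Which cells carried them in lung was not tested. Of 4 erythroid markers none was called in cerebellum, where Alas2 had 0.087 and Slc4a1 0.23, and Alas2 rose 1.75-fold in lung, with 3 called there without B46 or B19.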

How the data were processed

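Expression was measured on Affymetrix mouse arrays in 16 samples, 4 in each of 4 groups assigned from the sample titles. The deposited values are log2 expression values per probe set made by RMA, per the submitters' processing notes, whose settings the labels do not state. They ran from 3.15 to 14.8. Depth does not apply to arrays, and their number limits the precision. Probe sets were named from GEO's platform annotation, with symbols updated through RefSeq (18032 of 18193 genes), and probe sets with several symbols (932) were not named. A gene took its brightest probe set over all arrays. Means per group were fitted with limma 3.58.1 in R 4.3.3 on all 16 arrays (12 residual degrees of freedom, eBayes), p-values were adjusted after Benjamini and Hochberg across 18193 genes, or 45037 probe sets, and an adjusted p under 0.05 was called. Errors of log2 changes are moderated standard errors, and intervals are 95%. The fit was tested on simulated data.

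The genes, lists and tests were chosen with earlier results of these data known. Genes named are the 10 members, up to 4 called genes per list with the smallest adjusted p (the 2 brightest where none was called), and the 5 most alike per tissue, with exceptions marked. List members without a probe set of a single symbol are not analysed here. Alternatives were averaged probe sets, a filter on genes whose group means were all under 6, quantile or cyclic loess normalization again, fits on the compared arrays alone, array weights, a variance trend, a covariate (Xist or the Gapdh 3′ minus 5′ signal), and leaving out each array. The last, applied to the lists, was added after seeing the data. No replicate number is shared between groups, so no pairing was fitted. Replicates are biological per the series design, but litters are not given.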

Additional observations from a re-analysis of the deposited data

Results flagged for a closer look

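The dexamethasone effect differed between lung and cerebellum, by the interaction term of the limma fit, for Clec14a (log2 difference 1.45), Egfl7 (0.76), Cdh5 (0.56), Cldn5 (0.56) and Esam (0.47), each with the larger fall in cerebellum. Each value is that of the brightest probe set. The second probe sets of Clec14a and Cdh5 had -0.0055 and 0.10, neither called. With averaged probe sets Cdh5 and Egfl7 lost the call, as Cldn5 did in 9 of 24 alternatives. Of 40 groups of 4 arrays that were examined for a value far from the other 3, 2 were set apart, and chance alone sets apart about 1 in 20. Pecam1 was lowest in the vehicle lung B19, at 9.45, and Ramp2 was lowest in the dexamethasone cerebellum B39, at 8.87.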

How the results depend on the processing

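Each of the 10 genes was recomputed under each alternative in 4 comparisons, 990 values in all, of which 937 kept their direction and side of the threshold, 22 gained a call, 14 lost one and 17 changed sign, none of them called. The 5 falls in cerebellum were called under all 9 other settings and without each of the 16 arrays, as were the 10 differences between vehicle organs. Between 5 and 7 genes were called in cerebellum. With the Gapdh signal as a covariate, the genes called numbered 1 in place of 2 in lung and 2 in place of 5 for the difference between tissues, where the 3 lost differences were 0.47 to 0.66, against 0.47 to 0.76 without it, with larger standard errors. The sign in lung turned for Clec14a with averaged probe sets (-0.077), array weights (-0.058) or without B46 (-0.10, the lower end of a range up to 0.13), for Egfl7 with averaged probe sets (-0.055) or the Gapdh covariate (-0.071), and for Ramp2 without B31 (0.00042, from -0.14 without another). For the difference between tissues it turned for Pecam1 (-0.31 to 0.14 without single arrays) and Tjp1 (-0.082 to 0.094 without single arrays, -0.040 with array weights, -0.047 with the Gapdh covariate). Over all genes, 874 were called in cerebellum, 1699 with array weights, 528 without B50 and 557 without B79. With the Gapdh covariate 1806 were called in place of 5679 in lung, 2009 in place of 3879 for the difference and 5053 in place of 10497 between organs. Fitting the compared arrays alone was not run for the difference between tissues, which uses all arrays. The causes of these shifts were not tested. In cerebellum Cdh5, Pecam1, Emcn and, in treated mice, Clec14a lay near the array medians, where signal over background limits what can be measured.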
